A study of Mus musculus with 8 samples.

Results

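The major histocompatibility complex (MHC) genes of the mouse were followed in testes of VRK1-deficient mice. The members were all probes of the array, other than control probes, whose gene name starts with H2-, together with those of B2m, Tap1, Tap2, Tapbp, Cd74 and Ciita. Ciita is listed on the array under its older name C2ta. They made up 42 of the 27670 gene names on the array and were covered by 64 probes. Each gene is described by its brightest probe, and the differences of its other tested probes are given beside it. By role, there were 25 class I heavy chains, 4 genes of class I assembly (B2m, Tap1, Tap2 and Tapbp), 11 class II genes, and 2 other genes of the region, H2-Ke2 and H2-Ke6.

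The study asked how a deficiency of VRK1, a nuclear kinase needed for cell division, changes gene expression in the young testis. Total RNA of whole testes at postnatal day 8 was hybridised to 1-colour Agilent mouse arrays, with 4 biological replicates of wild type and 4 of VRK1-deficient mutant males. The mutants carried a gene trap with a β-galactosidase/neomycin resistance fusion in an intron of Vrk1, in every cell type, derived from the ES cell clone RRR178 and crossed back to C57BL/6. The study described the allele as hypomorphic, with part of the full-length VRK1 still made in homozygotes. The labels give no zygosity for the mutants. Wild type mice carried no trap, and the labels give no treatment for either genotype.

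Class I molecules consist of a heavy chain bound to β2-microglobulin (B2m) and show peptides from inside the cell, which the transporter Tap1/Tap2 and the bridging protein tapasin (Tapbp) load onto them. Class II molecules, made mainly by macrophages, dendritic cells and B cells, show peptides from taken-up proteins with the help of the invariant chain (Cd74) and the exchange factors H2-DM and H2-DO, and their transcription depends on Ciita. The testis is known as an immune-privileged organ whose germ cells carry little class I on their surface.

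All values below are log2 signals, that is, log2 of the processed spot intensity minus log2 of the 75th percentile of the same array. A difference is VRK1-deficient minus wild type on this log2 scale, and a gene was called when the limma adjusted p, taken over all 26962 tested probes, was under 0.05. Levels of a gene are compared only between arrays for the same probe. The brightness of different probes cannot be set against each other as amounts of RNA. Summed levels of a list are weighted to its brightest probes, and a share of a sum is a share of signal.

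Vrk1 itself fell by 4.00 on the log2 scale (SE 0.21, limma adjusted p 0.000135), which left 6.23% of the wild type signal, or 14.5% with the normexp background correction. The arrays lay on 2 slides, each with 2 arrays of both genotypes. On both slides the wild type samples took positions 1 and 2 and the mutants positions 3 and 4, so array position and genotype cannot be told apart. Wild type replicate 1 stood apart from the other wild type arrays in its germ cell genes, and also in the Sertoli and Leydig sums given below. The summed linear level of 11 germ cell markers was 50.2 on that array and 111 to 152 on the other wild type arrays, against 31.2 to 60.4 on the VRK1-deficient arrays. All 11 had lower values in the mutants, each with an unadjusted limma p under 0.05, against 28.8% of all tested probes. Dmrtb1 and Tdrd1, 2 of the 11, were called lower, beside 1.98% of all tested probes. Because whole testes were measured, fewer cells of a type and less RNA per cell cannot be told apart in any result here.

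Of the 42 members, 12 were well above background on no array and 28 on every array. H2-DMb2 was above on 5 arrays and H2-M10.2 on 2. The filter of at least 4 arrays kept 29 members for testing, and the counts below are over these 29. The 10 class I heavy chains above background on no array were H2-T3, the thymus leukaemia antigen of gut and thymus, H2-T24, H2-M1, H2-M9, H2-M11 and 5 genes of the H2-M10 group known from vomeronasal neurons (H2-M10.1, H2-M10.3, H2-M10.4, H2-M10.5 and H2-M10.6). The class II genes among the 12 were H2-Ob, the β chain of H2-DO, and H2-Ea, the Eα chain, which C57BL/6 mice are known not to transcribe. Both arrays on which H2-M10.2 stood above background were wild type, and no fold is given for it.

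Among the 29 tested members, 1 was called higher in VRK1-deficient testes, H2-T22, and 0 were called lower. Over all tested probes, 3.66% were called in either direction, 1.67% higher and 1.98% lower, so the share of members called was close to the background. At an unadjusted limma p under 0.05 there were 5 members, H2-T22, B2m, Tap2, Ciita and H2-K1, against 28.8% of all probes. For 3 members, H2-T22, B2m and Tap2, every mutant array lay above every wild type array, and for 0 members the reverse held. Such a separation in either direction held for 16.7% of all probes, 9.39% higher and 7.31% lower. The median difference of the members was -0.02, beside 0.04 over all tested probes, with 14 members above 0 and 15 below. With a normexp background correction both medians moved up, to 0.06 and 0.12, and on the unscaled values both moved down, to -0.20 and -0.14.

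**Figure D1:**
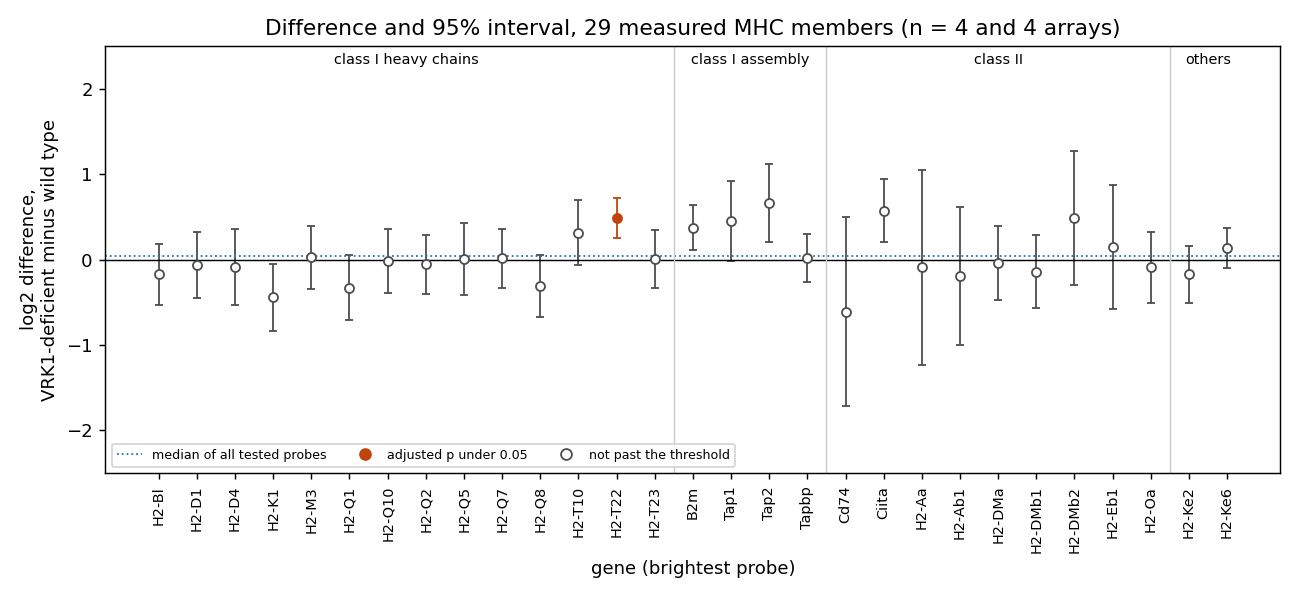
Log2 difference between VRK1-deficient and wild type testes (y axis, no unit beyond log2) for the 29 tested MHC members (x axis), with 95% intervals from limma over 4 and 4 arrays. The filled point, H2-T22 at 0.49, is the called gene, and the dotted line is the median of all tested probes at 0.04.

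H2-T22 was the called class I heavy chain. It encodes a nonclassical class I molecule that binds no peptide and is known as a ligand of γδ T cell receptors. Its brightest probe read -0.31, -0.37, -0.37 and -0.38 on the wild type arrays and 0.12, -0.04, 0.19 and 0.26 on the VRK1-deficient arrays. Every mutant array lay above every wild type array, and the wild type arrays lay close together (SD 0.03, n = 4). The difference was 0.49 (SE 0.11, 95% interval 0.25 to 0.73, limma adjusted p 0.0473), a 1.40-fold higher signal.

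A second probe lies elsewhere in the same transcript and gave -2.20, -2.07, -2.21 and -2.10 in wild type and -1.66, -1.81, -1.52 and -1.44 in VRK1-deficient testes. These arrays did not overlap either, and the difference was 0.54 (SE 0.12, limma adjusted p 0.0473). Both probes are shown because the call rests on them. The first was placed by the array files on chromosome 17 of build mm7 at 34144319 to 34144526 and the second at 34145522 to 34145581, both on the reverse strand, with no statement of exon or UTR. Neither shared a run of 20 or more bases with any other probe of the array. The probes were not compared with the transcripts of other class I genes, such as H2-T10. Whether they take up signal from those genes was not tested. In lower case, 5′ to 3′, they read
A_51_P432544: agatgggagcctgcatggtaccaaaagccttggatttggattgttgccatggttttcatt
A_52_P197826: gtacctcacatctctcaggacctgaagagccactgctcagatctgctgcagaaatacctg

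The H2-T22 call lay close to the threshold. Within the slides the difference was 0.38 on slide 1 and 0.60 on slide 2, and with slide as a block the limma adjusted p was 0.0512. Leaving out wild type replicate 1 gave a limma adjusted p of 0.0129, and leaving out any other array gave 0.0675 to 0.149. On the deposited values without scaling between arrays the difference was 0.31 (limma adjusted p 0.409), and without the filter on dim probes the limma adjusted p was 0.0948. The germ cell sums given above moved with genotype, and their part in the H2-T22 values was not tested.

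H2-T10, the near relative of H2-T22 with the same kind of receptor, had a difference of 0.31 (95% interval -0.06 to 0.69, limma adjusted p 0.244). It read 0.93, 0.94, 1.58 and 1.26 in wild type and 1.43, 1.31, 1.68 and 1.54 in VRK1-deficient testes. The genotypes overlapped, with wild type replicate 3 within the range of the mutants. H2-T23, which encodes Qa-1, the ligand of the NKG2A receptor of natural killer cells, differed by 0.01 (95% interval -0.33 to 0.35). Wild type replicate 4 was its highest array at 2.21, beside 1.62 to 1.63 on the other wild type arrays and 1.67 to 1.83 on the mutant arrays.

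The classical class I heavy chains of C57BL/6, H2-K1 and H2-D1, present peptides to CD8 T cells. The brightest H2-K1 probe read 2.69, 2.97, 3.27 and 3.46 in wild type and 2.72, 2.70, 2.46 and 2.74 in VRK1-deficient testes. Wild type replicate 1 lay among the mutants and the other wild type arrays lay above them. The difference was -0.44 (95% interval -0.83 to -0.05, limma adjusted p 0.135). The other H2-K1 probes differed by -0.04 and -0.10, so the probes of this gene disagreed. The brightest probe, placed on chromosome 17 at 32074445 to 32074504 of mm7, shares a run of 25 bases with a probe listed as LOC56628. H2-D1 read 2.33, 2.44, 2.18 and 2.94 in wild type and 2.44, 2.43, 2.23 and 2.54 in the mutants, which overlapped, with a difference of -0.06 (95% interval -0.45 to 0.32).

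The Q region holds nonclassical heavy chains, among them H2-Q7, which encodes Qa-2, and H2-Q10, known as a protein secreted by liver. H2-Q2, H2-Q5, H2-Q7 and H2-Q10 had differences of -0.06, 0.01, 0.02 and -0.02. In mm7 the H2-Q5 probe was placed between the probes of H2-T22 and H2-T10, not among the other H2-Q probes. The other H2-Q10 probes differed by -0.15, -0.29 and -0.08. H2-Q1 and H2-Q8 had differences of -0.33 (limma adjusted p 0.224) and -0.31 (limma adjusted p 0.234). A further H2-Q1 probe, for the accession U96752, read -2.87, -1.31, -0.44 and -1.10 in wild type and -3.88, -2.80, -3.19 and -2.92 in VRK1-deficient testes. Wild type replicate 1 lay among the mutants there, and the difference of -1.77 (SE 0.47) had a limma adjusted p of 0.0618. The third H2-Q1 probe differed by 0.10, so these probes disagreed as well. The array files place the brightest H2-Q1 probe at 33480880 to 33480939 of chromosome 17 of mm7. The U96752 probe lies at 33420381 to 33420440 and the third probe at 33416924 to 33418496. The H2-Q2 probe, at 33440548 to 33440607, lies between these and the brightest. Whether all the probes listed as H2-Q1 read the same gene was not tested. H2-D4, H2-Bl and H2-M3, which presents formylated peptides, had differences of -0.08, -0.17 and 0.03. The other H2-Bl probes, both dimmer, differed by -0.69 (limma adjusted p 0.207) and -1.25 (limma adjusted p 0.109), and the mean over the H2-Bl probes by -0.70. The second H2-M3 probe differed by 0.14.

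Class I heavy chains are close copies of each other, and some of their probes may take up signal from more than one gene. The probes of H2-Q5 and H2-Q10 share an exact run of 35 bases, shown in capitals because it makes up most of both probes. They lie on chromosome 17 of mm7 at 34255077 to 34255511, reverse strand, and at 33574106 to 33574165, forward strand.
H2-Q5: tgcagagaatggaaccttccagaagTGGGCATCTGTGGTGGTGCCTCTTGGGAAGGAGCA
H2-Q10: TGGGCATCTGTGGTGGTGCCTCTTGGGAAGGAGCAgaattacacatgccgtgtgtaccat
The probes of H2-Q7 and H2-T23 share a run of 28 bases and match at 50 of 59 aligned bases. In all, 6 of the 64 member probes share a run of at least 20 bases with a probe of another member. The H2-Q2 probe shares a run of 35 bases with a probe listed as ENSMUST00000087244 and one of 24 bases with a probe listed as LOC56628. The values of these genes are therefore uncertain as values of single genes.

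**Figure D2:**
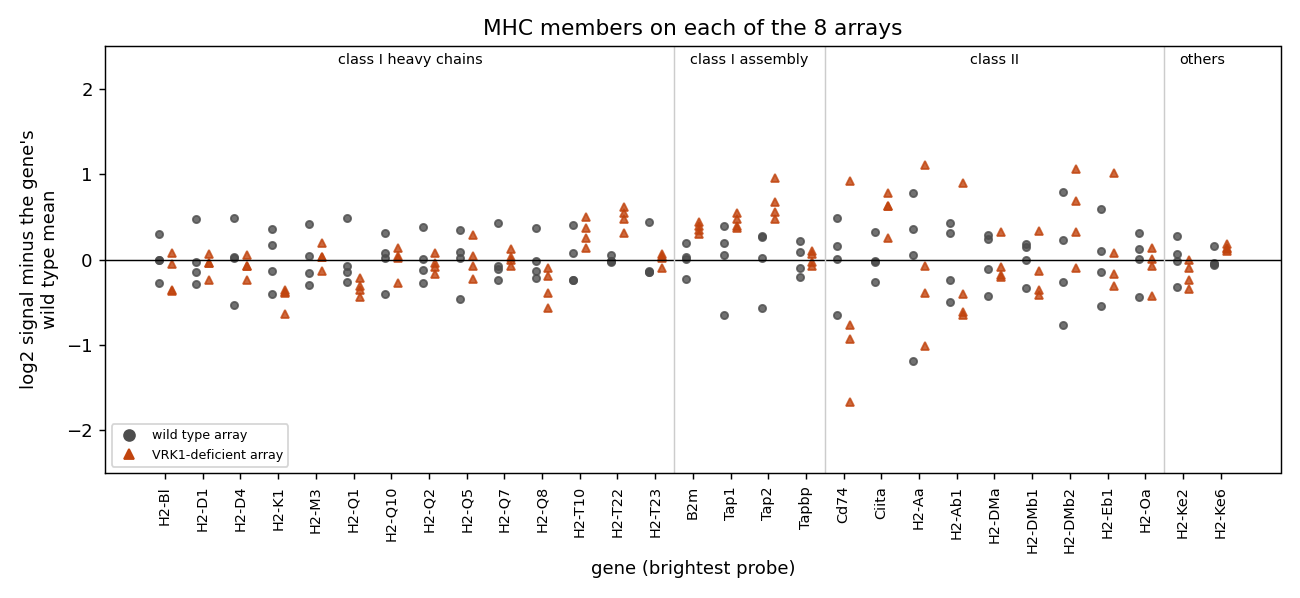
Log2 signal of each array minus the wild type mean of the same gene (y axis) for the 29 tested members (x axis). Circles are wild type arrays and triangles VRK1-deficient arrays, 4 each. The triangles lie above all circles for H2-T22, B2m and Tap2, and the widest spreads within a genotype are those of class II genes.

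In class I assembly, all 4 genes had differences above 0, although Tapbp turned to -0.16 on the deposited values without scaling between arrays and to -0.0061 with quantile normalization, and none was called. B2m, the light chain of every class I molecule, read 1.20, 0.97, 1.22 and 1.39 in wild type and 1.59, 1.64, 1.55 and 1.50 in VRK1-deficient testes. The genotypes did not overlap, and the difference was 0.37 (SE 0.12, 95% interval 0.11 to 0.64, limma adjusted p 0.085). The other B2m probes differed by 0.46 (limma adjusted p 0.11) and 0.24 (limma adjusted p 0.468).

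Tap2 and Tap1 encode the subunits of the peptide transporter of the endoplasmic reticulum. Tap2 read -2.40, -2.66, -3.25 and -2.42 in wild type and -2.12, -2.20, -2.01 and -1.73 in VRK1-deficient testes. All mutant arrays lay above the wild type arrays, of which replicate 3 was the lowest. The difference was 0.66 (SE 0.20, 95% interval 0.21 to 1.12, limma adjusted p 0.0794). Tap1 read -2.04, -2.37, -3.07 and -2.23 in wild type and -1.88, -1.94, -2.03 and -2.06 in the mutants. Here the genotypes overlapped through wild type replicate 1, wild type replicate 3 was again the lowest, and the difference was 0.45 (95% interval -0.02 to 0.91, limma adjusted p 0.186). Without wild type replicate 3 it was 0.23. Tapbp differed by 0.02 (95% interval -0.26 to 0.30). Its second probe differed by 0.41 (limma adjusted p 0.33).

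Without wild type replicate 1, the array with the germ cell sum of 50.2, 3 members were called higher (Ciita, H2-T22 and Tap2) and 1 lower (H2-K1). The limma adjusted p was then 0.0462 for Ciita, 0.0289 for Tap2, 0.0212 for H2-K1 and 0.0536 for B2m, with differences of 0.56, 0.76, -0.58 and 0.38. In that setting 28.4% of all tested probes were called. Without any of the other arrays, 0 members were called.

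**Figure D3:**
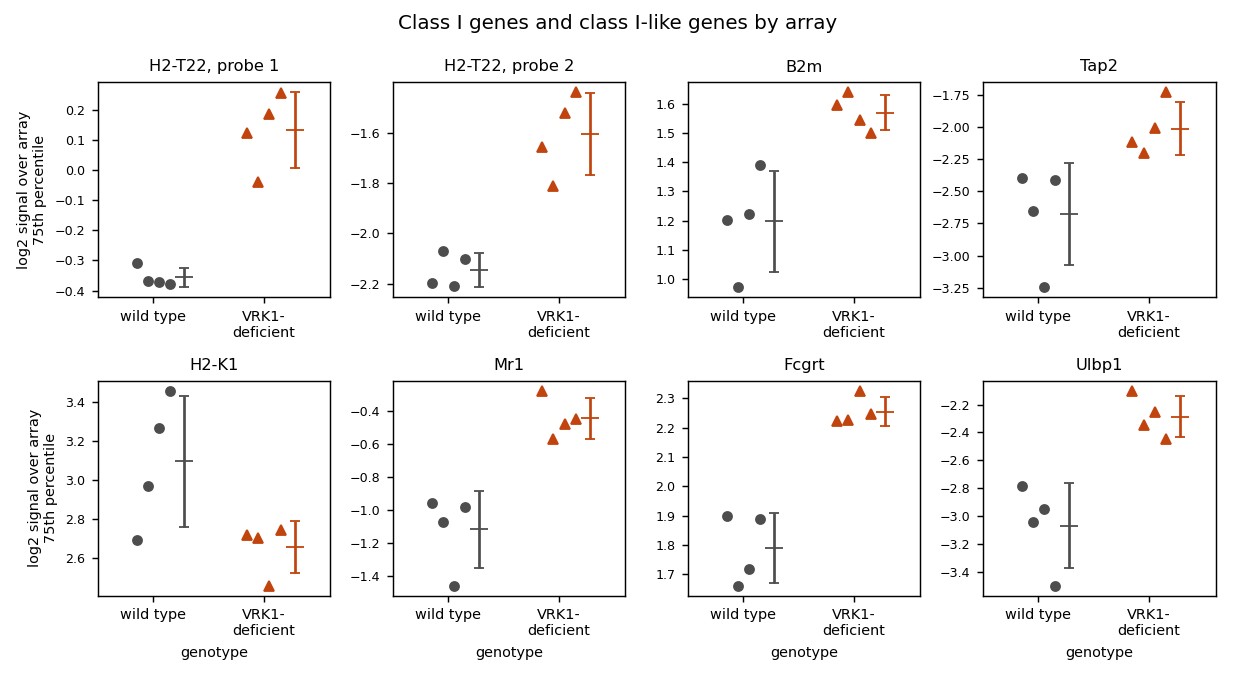
Log2 signal over the 75th percentile of the array (y axes, scaled separately in each panel) by genotype (x axis) for H2-T22 with both probes, B2m, Tap2, H2-K1, and the class I-like genes Mr1, Fcgrt and Ulbp1. Circles and triangles are the 4 arrays of each genotype, and the bars beside them give mean and SD. H2-K1 is the panel in which the genotypes overlap, through wild type replicate 1 at 2.69.

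Class I-like proteins encoded outside the MHC were described by a list of 10 genes, of which 9 were tested. Of these, 3 were called higher and 0 lower, beside 1.67% and 1.98% of all tested probes. The median difference of the 9 was 0.46. Mr1 presents vitamin B metabolites to mucosal-associated invariant T cells and read -0.96, -1.07, -1.46 and -0.98 in wild type and -0.28, -0.57, -0.48 and -0.45 in VRK1-deficient testes. The genotypes did not overlap and Mr1 rose by 0.68 (SE 0.14, limma adjusted p 0.0473).

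Fcgrt, the neonatal Fc receptor, which pairs with B2m, read 1.90, 1.66, 1.72 and 1.89 in wild type and 2.22, 2.23, 2.33 and 2.25 in the mutants. Here too the genotypes did not overlap, and Fcgrt rose by 0.46 (SE 0.11, limma adjusted p 0.0492). Ulbp1, a ligand of the activating receptor NKG2D, read -2.79, -3.04, -2.95 and -3.50 in wild type and -2.10, -2.35, -2.25 and -2.45 in the mutants. Its arrays were also apart, and it rose by 0.78 (SE 0.16, limma adjusted p 0.0473). Cd1d1, which presents lipids and pairs with B2m, had a difference of 0.48 (limma adjusted p 0.104), and Hfe, a regulator of iron uptake, one of 0.09 (limma adjusted p 0.603). The calls of Mr1, Fcgrt and Ulbp1 were lost without any array other than wild type replicate 1, at limma adjusted p from 0.0599 to 0.153. Without wild type replicate 1 the limma adjusted p was 0.00957 for Mr1, 0.0114 for Fcgrt and 0.00748 for Ulbp1. On the deposited values without scaling between arrays they were lost as well, at 0.149 to 0.471.

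Among the class II genes, 9 were tested and none was called, with 3 values above 0 and 6 below and a median difference of -0.09. Of the 6 values below 0, those of H2-Aa, H2-DMa, H2-DMb1 and H2-Oa lay above 0 with the normexp correction. Their values spread widely between arrays of the same genotype. The median SD within a genotype was 0.54 for class II genes, 0.24 for class I heavy chains and 0.24 for all tested probes.

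H2-Aa, the Aα chain, read -4.04, -3.31, -5.28 and -3.73 in wild type and -4.17, -4.48, -5.10 and -2.98 in VRK1-deficient testes. The lowest array was wild type replicate 3 and the highest VRK1-deficient replicate 4 and the genotypes overlapped. The difference was -0.09 with a 95% interval of -1.23 to 1.05. H2-Ab1, its Aβ partner, read -0.95, -0.27, -1.20 and -0.39 in wild type and -1.10, -1.35, -1.31 and 0.20 in the mutants. VRK1-deficient replicate 4 was again the highest and lay above all wild type arrays. VRK1-deficient replicates 2 and 3 lay below all wild type arrays, and replicate 1 below all but wild type replicate 3. The difference was -0.19 (95% interval -0.999 to 0.62). The other H2-Ab1 probes differed by -0.10, 0.15 and 0.42 (limma adjusted p 0.528 to 0.877), and the second H2-Aa probe by -0.02.

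H2-Eb1, the Eβ chain, read -2.72, -1.97, -3.11 and -2.46 in wild type and -2.73, -2.88, -2.49 and -1.56 in VRK1-deficient testes, a difference of 0.15 (95% interval -0.57 to 0.87). The lowest and highest arrays were the same as for H2-Aa. Cd74, the invariant chain encoded on chromosome 18, read -1.51, -1.04, -2.17 and -1.36 in wild type and -2.28, -2.45, -3.19 and -0.60 in the mutants. Of the mutant arrays 3 lay below every wild type array and replicate 4 lay above every one. The difference was -0.61 (95% interval -1.72 to 0.50, limma adjusted p 0.429). It was -1.09 on slide 1 and -0.13 on slide 2, -1.12 without VRK1-deficient replicate 4 and -0.26 without VRK1-deficient replicate 3.

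Of the 8 class II genes above background on all arrays, VRK1-deficient replicate 4 was the highest array for 6, including all 4 of H2-Aa, H2-Ab1, H2-Eb1 and Cd74. Wild type replicate 3 was the lowest array for 4 of the 8. The range over the 8 arrays was 2.30 for H2-Aa, 1.55 for H2-Ab1, 1.55 for H2-Eb1 and 2.59 for Cd74. H2-DMa and H2-DMb1, the chains of the peptide exchange factor H2-DM, had ranges of 0.75 and 0.75 and differences of -0.04 and -0.14. H2-Oa, the α chain of H2-DO, differed by -0.09 and its second probe by -0.26, and the dim H2-DMb2 by 0.49 (95% interval -0.30 to 1.27).

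**Figure D4:**
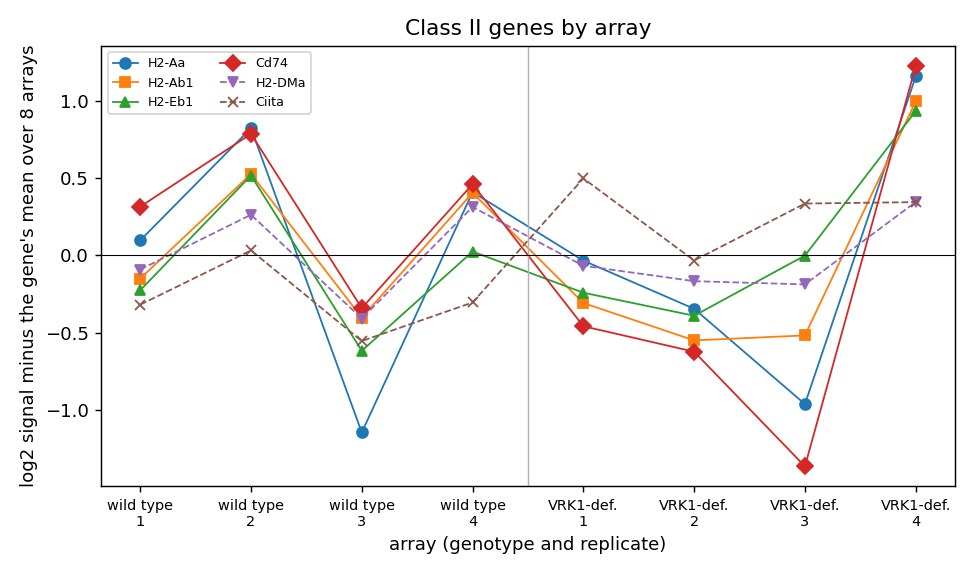
Log2 signal of 6 class II genes minus the mean of the same gene over all 8 arrays (y axis), by array (x axis, wild type left of the line and VRK1-deficient right). H2-Aa, H2-Ab1, H2-Eb1 and Cd74 (solid lines) are highest on VRK1-deficient replicate 4, and Ciita (dashed) is not.

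Ciita, the transactivator of class II genes, had a pattern of its own and read -3.84, -3.49, -4.08 and -3.83 in wild type and -3.02, -3.56, -3.19 and -3.18 in VRK1-deficient testes. Only VRK1-deficient replicate 2 reached the wild type range. The difference was 0.57 (SE 0.16, 95% interval 0.21 to 0.94, limma adjusted p 0.0687). Ciita was highest on VRK1-deficient replicate 1, not on replicate 4, where the class II chains peaked.

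Markers of cells that carry class II were read on the same arrays. The summed linear level of 16 macrophage markers was 18.8 to 26.4 in wild type and 23.9 to 27.9 in VRK1-deficient testes, and 0 of the 16 were called (0 with an unadjusted limma p under 0.05, against 28.8% of all probes). On VRK1-deficient replicate 4, where the class II chains were highest, the macrophage sum was 25.3. On wild type replicate 3, where 4 class II genes were lowest, it was 26.4. This sum is weighted to its brightest gene, Lyz2, which read 3.58 and 3.72 on these arrays. How single macrophage markers followed the class II chains was not tested. Lyz2, C1qc, C1qa and Csf1r, the brightest macrophage markers, differed by 0.26, -0.04, 0.14 and 0.09. Of 8 dendritic cell markers, Clec9a, Cd209a and Ccr7 were above background on no array and 0 of the 4 tested were called. These 4 differed by 0.35 for Zbtb46, -0.33 for Batf3, -0.05 for Xcr1 and 1.18 for Flt3 (limma adjusted p 0.0594), a receptor of dendritic cell precursors whose difference was 0.56 with the normexp correction. The summed level of the 4 was 1.95 to 2.36 in wild type and 1.96 to 2.53 in the mutants, and Zbtb46 and Batf3 carried 94.8% to 98.7% of it on each array. Without Zbtb46 and Batf3 the sum was 0.0309 to 0.103 in wild type and 0.0655 to 0.111 in the mutants. On VRK1-deficient replicate 4 it was 0.0924. Of 10 tested lymphocyte markers 0 were called, and 2 (20%) had an unadjusted limma p under 0.05, beside 28.8% of all probes. Their sums were 1.07 to 1.62 in wild type and 1.13 to 1.57 in the mutants, of which Cd8b1 alone carried 54.4% to 71.9%. Without Cd8b1 the lymphocyte sum was 0.409 to 0.437 in wild type and 0.460 to 0.552 in the mutants, which did not overlap. It was highest, at 0.552, on VRK1-deficient replicate 4, where the class II chains peaked. Of 6 tested mast cell markers, 4 were called higher, beside 1.67% of all tested probes. These were Cpa3 at 1.90, Tpsb2 at 1.59, Cma1 at 1.54 and Mcpt4 at 1.51. With the normexp correction they differed by 0.81, 0.59, 1.05 and 0.88. Cpa3 and Tpsb2 were above background on 3 wild type arrays. With any single array other than wild type replicate 1 left out, their limma adjusted p values and those of Cma1 and Mcpt4 were 0.0458 to 0.140. The summed level was 3.72 to 6.49 in wild type and 5.25 to 7.08 in VRK1-deficient testes, but Hdc, which was not called at 0.32, carried 85.0% to 95.8% of it. Without Hdc the mast cell sum was 0.164 to 0.336 in wild type and 0.571 to 0.879 in VRK1-deficient testes, which did not overlap, and it was at its lowest mutant value, 0.571, on replicate 4. The part of lymphocytes, mast cells and germ cells in the MHC values was not tested.

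Somatic cells of the testis were read in the same way. Of 12 Sertoli, 8 Leydig and 12 endothelial markers 0 were called. Of 7 peritubular myoid markers 1 was called lower, Cnn1, beside 1.98% of all tested probes. The Sertoli sum was 484 on wild type replicate 1, 358 to 380.5 on the other wild type arrays and 471 to 558 in VRK1-deficient testes. For the Leydig markers the sum was 60.2 on wild type replicate 1, 39.0 to 44.6 on the other wild type arrays and 55.65 to 68.3 in the mutants. In both lists wild type replicate 1 lay within the range of the mutants and the other wild type arrays below it. The median difference was 0.42 for the Sertoli, 0.36 for the Leydig and 0.25 for the endothelial markers. Of these, 2 Sertoli, 2 Leydig and 3 endothelial markers had values below 0. At an unadjusted limma p under 0.05 there were 7 Sertoli markers (58.3%), 4 Leydig markers (50%) and 3 endothelial markers (25%), beside 28.8% of all probes. Their part in the H2-T22, B2m and Tap2 values was not tested.

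Interferons are the main inducers of class I and class II transcription, so 33 genes of the interferon response were read, of which 28 were tested. None was called, and 13 (46.4%) had an unadjusted limma p under 0.05 beside 28.8% of all probes. These 13 lay on both sides of 0. Irf1, Mx2, Socs1, Jak2 and Tyk2, named after their values were seen, were lower in the mutants and the rest higher. Of the 28 values 17 lay above 0 and 11 below, with a median difference of 0.08. The brightest were Jak1, the kinase of the interferon receptors, at 0.16, Bst2, an antiviral membrane protein, at 0.28, the receptor chain Ifngr2 at 0.35 and the transcription factor Irf1 at -0.50 (limma adjusted p 0.0786). The 5 others, Cxcl9, Cxcl10, Ifi44, Ifit1 and Mx1, all interferon-induced, were above background on fewer than 4 arrays.

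Of 9 tested genes of class I peptide supply and folding 0 were called. An unadjusted limma p under 0.05 was seen for 1 (11.1%), beside 28.8% of all probes. The chaperones Canx, Calr and Pdia3, which fold the heavy chain, differed by 0.37 (limma adjusted p 0.0777), 0.18 and 0.09, and the proteasome activator Psme1 by -0.06. The immunoproteasome subunits Psmb8, Psmb9 and Psmb10, named after their values were seen, differed by -0.13, -0.28 and -0.45. Of 14 tested genes of class II peptide supply and transcription 0 were called. At an unadjusted limma p under 0.05 there were 5 (35.7%), beside 28.8% of all probes. Their brightest were the lysosomal proteases Ctsl at 0.38 (limma adjusted p 0.0786), Ctsb at 0.24 and Lgmn at -0.08, and Nfyb, a subunit of the Y box factor NF-Y, at -0.54 (limma adjusted p 0.163).

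The promoters were read from RefSeq for the build GRCm38.p6, as the 250 bases before each gene's start, in which 28 of the 40 class I, assembly and class II genes had an entry. The core of the interferon-stimulated response element, GAAA followed by 2 bases of any kind and GAAA again, was searched on both strands, as were the motifs below. It was present for 2 of 18 class I heavy chains, H2-T22 and H2-T23, for 1 of 3 assembly genes, B2m, and for 0 of 7 class II genes, and in 2.98% of all 32851 windows. The letters GGGGATTCC of the NF-κB site of class I promoters were present for H2-D1, H2-K1 and H2-Q7, 3 of 18 class I heavy chains, and in 0.213% of all windows. The Y box CTGATTGG was present for 11 of 18 class I heavy chains, 1 of 3 assembly genes (Tap1) and 3 of 7 class II genes (H2-Aa, H2-Eb1 and H2-Oa), and in 3.83% of all windows. None of the motifs searched overlapped another in the windows printed here.

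The windows of H2-T22 and B2m are shown as examples that hold the response element core, and those of H2-Aa and H2-Eb1 as examples that hold the Y box. They were picked for their motifs. The windows of Tap2, H2-Ab1 and Ciita were not analysed here. Capitals mark the response element core in the first pair, read on the opposite strand in H2-T22, and the Y box in the second. The windows are chr17:36042743-36042992 (minus strand), chr2:122147437-122147686 (plus), chr17:34287824-34288073 (minus) and chr17:34305617-34305866 (plus) of GRCm38.p6.
H2-T22: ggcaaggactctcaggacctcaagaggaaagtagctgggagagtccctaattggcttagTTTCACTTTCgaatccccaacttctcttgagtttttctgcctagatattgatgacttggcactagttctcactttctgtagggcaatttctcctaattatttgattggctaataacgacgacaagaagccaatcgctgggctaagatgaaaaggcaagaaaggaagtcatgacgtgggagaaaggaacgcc
B2m: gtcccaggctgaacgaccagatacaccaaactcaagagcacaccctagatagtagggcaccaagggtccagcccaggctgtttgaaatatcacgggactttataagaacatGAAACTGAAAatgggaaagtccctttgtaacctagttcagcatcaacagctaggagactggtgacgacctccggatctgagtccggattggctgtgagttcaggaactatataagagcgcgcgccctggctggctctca
H2-Aa: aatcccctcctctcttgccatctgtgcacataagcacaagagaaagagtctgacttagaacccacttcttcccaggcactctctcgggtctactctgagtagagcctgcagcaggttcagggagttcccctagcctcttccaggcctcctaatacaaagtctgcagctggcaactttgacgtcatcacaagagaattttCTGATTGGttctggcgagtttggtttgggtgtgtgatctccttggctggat
H2-Eb1: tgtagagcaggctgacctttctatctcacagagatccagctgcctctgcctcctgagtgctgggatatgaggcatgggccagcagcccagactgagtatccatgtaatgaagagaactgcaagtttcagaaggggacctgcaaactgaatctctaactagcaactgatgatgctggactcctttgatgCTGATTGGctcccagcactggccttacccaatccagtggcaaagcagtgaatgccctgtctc
The core lies 191 to 182 bases before the start of H2-T22 and 139 to 130 bases before that of B2m. The Y box lies 51 to 44 bases before the start of H2-Aa and 62 to 55 bases before that of H2-Eb1. A match of letters describes the sequence and says nothing of binding in these testes.

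Among the other genes of the region, H2-Ke2, a subunit of the chaperone prefoldin, read 3.90, 4.27, 4.49 and 4.20 in wild type and 3.98, 4.21, 4.11 and 3.87 in VRK1-deficient testes, which overlapped, with a difference of -0.17 (95% interval -0.50 to 0.16). H2-Ke6, a hydroxysteroid dehydrogenase also named Hsd17b8, read 0.73, 0.51, 0.50 and 0.52 in wild type and 0.70, 0.74, 0.69 and 0.66 in the mutants. Wild type replicate 1 lay among the mutants and the other wild type arrays below them. The difference was 0.13 (95% interval -0.10 to 0.36).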

How the data were processed

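The authors labelled total testis RNA with Cy3, hybridised 1 sample to each Agilent array and read the spots with Agilent Feature Extraction 9.5.3.1. The deposited values are processed spot intensity on a linear scale, background-subtracted and not scaled between arrays, and the deposited value table held the same numbers. GeneSpring GX is named for the later steps, and how the values were normalized there is not stated in the sources used.

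Outlier spots were left out (58 to 134 of 43379 per array), log2 was taken, each array was centred on its 75th percentile and spots of a probe were averaged. Of 41174 probes, 26962 passed the filter (well above background on 4 or more of 8 arrays) and were tested with limma 3.58.1 (lmFit and eBayes, R 4.3.3), with Benjamini-Hochberg adjustment over all of them. The number of arrays, 4 a group, limits the precision. The fit was tested on simulated data. Summed levels of a list add the linear values of its tested genes on an array. Python 3.11.15, numpy 2.4.6, pandas 2.3.3 and matplotlib 3.10.9 were used. Gene symbols came from accessions in a RefSeq table for 22951 probes, from symbols or synonyms for 6659 and 3109, and from the array files for 8455.

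The genes named are all members, Vrk1 and, from most lists, the called genes up to 5 by size and the 4 brightest. From the germ cell and peritubular myoid lists only called genes are named, and from the lymphocyte list only Cd8b1. No gene of the Sertoli, Leydig and endothelial lists is named. Some untested genes are named too, and other exceptions are named as such. The members, lists and tests were chosen with earlier results of these data known. Alternatives were other normalizations, background corrections, filters and probe averages, slide or replicate number as a block, each slide alone, each array left out, the methods' Student's t-test, and an intensity trend. Arrays were not paired by replicate number in the main fit, and the labels state no pairing. Histology and quantitative PCR were not analysed here.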

Additional observations from a re-analysis of the deposited data

Results flagged for a closer look

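Within the 58 groups of 4 arrays formed by 29 members and 2 genotypes, 5 held an array far from the other 3 by Dixon's criterion, and chance alone gives about 1 group in 20. H2-K1 on VRK1-deficient replicate 3 read 2.46, below 2.70 to 2.74 on the other mutant arrays. H2-T22 on wild type replicate 1 read -0.31, above -0.38 to -0.37, a gap that was small against the distance to the mutants. H2-T23 on wild type replicate 4 read 2.21, above 1.62 to 1.63. H2-Ab1 on VRK1-deficient replicate 4 read 0.20, above -1.35 to -1.10. H2-Ke6 on wild type replicate 1 read 0.73, above 0.50 to 0.52.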

How the results depend on the processing

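The call of H2-T22 was kept with quantile normalization, the normexp background correction, the adjusted t-test, the mean over probes, the filter on all 8 arrays, the intensity trend and without wild type replicate 1. Its difference stayed above 0 in all 21 alternatives (0.31 to 0.60, adjusted p 0.0129 to 0.5). The number of members called higher was 0 on the unscaled deposited table, without the filter on dim probes, with slide as a block, on slide 1 alone, on slide 2 alone and with the replicate block, and 4 with the unadjusted t-test. Without each array in turn it was 0 to 3, and 0 to 1 members were called lower; the 3 and the 1 came without wild type replicate 1. Over all probes, 986 calls became 17 without the filter, 641 with slide as a block, 3 on slide 1 alone, 2280 with the replicate block, 162 with the adjusted t-test, 7068 with the unadjusted t-test, 1916 with the intensity trend, and 3 to 7659 without each array. The 10 called genes of the lists became 21 with normexp, 0 without the filter, 0 on slide 1 alone, 16 on slide 2 alone, 23 with the replicate block, 1 with the adjusted t-test, 51 with the unadjusted t-test, 21 with the intensity trend, and 0 to 57 without each array. Over all probes 451 of 986 calls were higher, beside 64 of 916 on the unscaled table. Vrk1 fell by 2.79 with normexp. It fell by 3.67 on slide 1 alone, where the adjusted p was 0.0636.

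Deviations of same-numbered arrays correlated at 0.47, 0.07, 0.19 and -0.14, and those of differently numbered arrays at -0.37 to 0.27. These few values cannot settle whether replicate numbers pair the arrays. With the replicate block the adjusted p of H2-T22 was 0.0536.

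The median of all tested probes was 0.04, but -0.14 on the unscaled table, 0.12 with normexp and 0.13 without the filter. The median of the members ran from -0.20 to 0.09.

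Members that were not called changed sign in several settings, and the cause was not tested. With quantile normalization these were Tapbp (-0.0061), H2-Q5 (-0.019), H2-Q7 (-0.0067), H2-T23 (-0.017) and H2-DMa (0.00075). With normexp they were H2-Bl (0.059), H2-Q5 (-0.0049), H2-Q7 (-0.013), H2-T23 (-0.045), H2-Aa (0.090), H2-DMa (0.088), H2-DMb1 (0.081) and H2-Oa (0.19). On the unscaled table they were Tapbp (-0.16), H2-M3 (-0.15), H2-Q5 (-0.17), H2-Q7 (-0.16), H2-T23 (-0.17), H2-Eb1 (-0.029) and H2-Ke6 (-0.045), and with the mean of all probes H2-Ab1 (0.068). On slide 1 alone they were Tapbp (-0.043), H2-D1 (0.049), H2-Q10 (0.031), H2-Q5 (-0.073), H2-DMb2 (-0.0093), H2-Eb1 (-0.46) and H2-Ke2 (0.0085). On slide 2 alone they were H2-M3 (-0.12), H2-Q7 (-0.067), H2-T23 (-0.16), H2-Aa (0.47), H2-Ab1 (0.24), H2-DMa (0.13), H2-DMb1 (0.15) and H2-Oa (0.13). Without each array the ranges that crossed 0 were -0.49 to 0.21 for H2-Aa, -0.16 to 0.092 for H2-D1, -0.26 to 0.078 for H2-D4, -0.18 to 0.060 for H2-DMa, -0.14 to 0.35 for H2-Eb1, -0.074 to 0.16 for H2-M3, -0.23 to 0.021 for H2-Oa, -0.15 to 0.083 for H2-Q10, -0.15 to 0.070 for H2-Q2, -0.15 to 0.12 for H2-Q5, -0.065 to 0.16 for H2-Q7, -0.042 to 0.15 for H2-T23 and -0.053 to 0.091 for Tapbp. Members above background on no array give no difference at this signal.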
